A study of Sus scrofa with 9 samples.

Results

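CYP11A1, GJA1, VIM, TIMP1, INHBA, GATA6, SERPINE2, FDX1, VCAN and RGS2, known as markers of the cumulus and granulosa cells around the oocyte, were followed in pig (Sus scrofa) oocyte libraries. They are 10 of the 23507 genes in the count table, were taken by gene symbol, and all have a row. The choice of genes used their measured level in control libraries, near 0 for CYP11A1, GJA1 and VIM and high for RGS2 and VCAN. Levels in control, and every comparison with control, are therefore given for these 10 genes as a description without a test.

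The oocytes were wild type, were collected with their cumulus layers, matured in culture and sequenced as eggs arrested in metaphase II (MII), ready for fertilisation. Control oocytes were kept at 38.5 °C throughout. Heat stress oocytes spent 24 h at 41.5 °C from the germinal vesicle stage and then returned to 38.5 °C until MII. The last group received L-Asp, the usual code of the amino acid L-aspartic acid, in the medium during the same heat. The labels list 0.5, 1.0 and 1.5 mmol/L L-Asp without saying which was sequenced, and give 25 oocytes per group, with no statement on how many went into a library or how the cumulus cells were taken off. Each group had 3 libraries of oligo(dT)-primed, PCR-amplified cDNA.

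Cumulus cells are specialised granulosa cells that stay in contact with the oocyte through gap junctions and, before ovulation, spread apart in a matrix of hyaluronan and proteoglycans. Granulosa cells also make steroid hormones and inhibins. Cumulus cells cling to the zona pellucida, the coat of the egg, so RNA of a few of them can be carried into an oocyte library. In such a bulk library, fewer cells of a type and less RNA per cell cannot be told apart.

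Total counts were 54965064 to 58361475 per control library, 46198885 to 53327419 per heat stress library and 41693395 to 49008681 per library with L-Asp. A count above 0 was found for 17433 to 17685 genes in control libraries and for 14730 to 15808 in heated ones. Control replicates were nearly identical: the index of dispersion of a pair, which is 1 for independent counts and about 4 if each fragment is counted as 4, was 5.19 to 5.22. For pairs of heat stress libraries it was 109 to 119, and for pairs with L-Asp 79.4 to 84.9. For this reason the mean of the control replicates stands as 1 sample and carries no SD. Levels are given as CPM, counts scaled to library size by trimmed mean of M values (TMM), for the same gene between libraries, and as the deposited FPKM, scaled to gene length too, between genes. Oocyte genes were high in every library. The 11 oocyte genes read here include BTG4, BMP15 and the zona pellucida genes ZP2, ZP3 and ZP4. Their summed FPKM was 16288 to 16440 in control, 9396 to 11144 after heat stress and 9844 to 12091 with L-Asp. The genes of this sum went both ways. In the edgeR fit used below, 4 of the 11 had a log2 fold change against control above 0 in each heated group. For ZP3 it was 0.93 after heat stress and 1.65 with L-Asp, and for BMP15 -1.32 and -1.25. None of the 11 passed the test against control, where 0.0% of all tested genes did. At an unadjusted edgeR p under 0.05, 1 was higher and 4 lower after heat stress, where 3.86% of tested genes were past it. With L-Asp 3 were higher and 3 lower, where 3.22% of tested genes were past it.

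CYP11A1, the mitochondrial enzyme that turns cholesterol into pregnenolone, was the marker that separated the libraries most. It had 0, 0 and 0.115 CPM in control replicates 1, 2 and 3. The heat stress libraries held 5.98, 6.37 and 15.1 CPM, and those with L-Asp 1.32, 7.80 and 0.687. All 6 heated libraries lay above the control libraries, whereas the heated groups overlapped, because L-Asp replicate 2 lay above heat stress replicates 1 and 2. The heat stress mean of 9.16 ± 5.18 CPM (SD, n = 3) was 235 times the control level of 0.039 CPM. That control level rests on 6 counts in 1 library. The 95% exact interval of the ratio, taking 4 counts as 1 fragment, runs from 54.8 to 3291. It covers counting error only and leaves out the spread between libraries. It is no test, since the gene was chosen on its control level. As a log2 ratio the heat stress mean lay 7.88 above control, and 7.27 above it without control replicate 2. Without control replicate 3, control held no count. FDX1, the ferredoxin that passes electrons to CYP11A1, was present in every library instead. It measured 24.6, 23.1 and 25.5 CPM in the control libraries, 31.9, 31.6 and 30.5 in the heat stress ones and 28.2, 30.7 and 19.7 in those with L-Asp. The heat stress libraries lay above control by 1.29 times in the mean, and the L-Asp libraries spanned the control values. The enzyme and its electron donor thus had different profiles over the libraries.

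GJA1 encodes connexin 43, the main gap junction protein between granulosa and cumulus cells. It measured 0.668, 0.191 and 1.56 CPM in the control libraries, 6.97, 7.15 and 13.4 in the heat stress ones and 5.03, 1.60 and 7.03 in those with L-Asp. The lowest heated library, L-Asp replicate 2, was close to the highest control library. Control replicate 3 held 81 counts of GJA1 and control replicate 2 held 10, so the control level of 0.806 CPM depends on the library. The heat stress mean of 9.16 ± 3.64 CPM (SD, n = 3) was 11.4 times that level, a log2 ratio of 3.51, which became 4.44 without control replicate 3.

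VIM encodes vimentin, an intermediate filament protein of mesenchymal and granulosa cells. Its levels were 0.223, 0 and 0.192 CPM in the control libraries, 2.35, 5.55 and 2.06 in the heat stress ones and 2.01, 1.70 and 1.28 in those with L-Asp. Every heated library lay above every control library, and heat stress replicate 2 stood highest. The heat stress mean was 24.3 times the control level, with a 95% exact counting interval of 10.4 to 73.9. That interval too leaves out the spread between libraries and is no test. The log2 ratio of 4.60 rests in part on single libraries: it was 4.002 without control replicate 2 and 4.01 without heat stress replicate 2.

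GATA6, a transcription factor of granulosa cells, and INHBA, the beta A subunit of activin A and inhibin A, had no count in any control library. GATA6 measured 1.26, 1.52 and 1.60 CPM in the heat stress libraries and 0.912, 0.768 and 1.11 in those with L-Asp. INHBA measured 0.608, 0.877 and 1.03 CPM in the heat stress libraries and 0.385, 0.849 and 0.853 in those with L-Asp. A library at 0 could still have held up to 12 counts, the level of 3 fragments, which is 0.234 CPM in the averaged control. The GATA6 mean was 6.22 times that level after heat stress and 3.98 times with L-Asp. The INHBA mean was 3.58 and 2.97 times that level. These ratios leave out the error of the heated means, so they are neither lower bounds nor tests.

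TIMP1, a secreted inhibitor of matrix metalloproteinases, measured 4.86, 4.37 and 4.45 CPM in control. After heat stress it measured 6.22, 18.6 and 32.4 CPM, and with L-Asp 15.2, 10.5 and 9.24 CPM. All heated libraries lay above control, and heat stress replicate 1 was only slightly so. The log2 ratio of the heat stress mean to control was 2.07, and 1.45 without heat stress replicate 3. TIMP1 lies on the X chromosome from 42102172 to 42106296 inside the span of SYN1, a neuronal gene on the opposite strand. The library preparation as described does not mark strand. Only whole gene spans were compared, not exons, so whether reads of this pair can be told apart was not tested. None of the other 9 genes overlaps another gene of the table. By the table's coordinates, for which the sources used here give no genome build, CYP11A1 lies on chromosome 7 from 59175758 to 59188478, GJA1 on chromosome 1 from 40988528 to 41002156 and VIM on chromosome 10 from 43517307 to 43526170. RGS2 spans 936789 to 940098 of chromosome 10, and VCAN the far longer stretch from 91384391 to 91811208 of chromosome 2.

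SERPINE2, or protease nexin 1, inhibits serine proteases such as thrombin and plasminogen activators. It measured 16.6, 14.9 and 14.7 CPM in the control libraries, 20.9, 20.7 and 22.6 in the heat stress ones and 14.3, 13.8 and 10.8 in those with L-Asp. The groups did not overlap on this scale: heat stress was highest, control lay between, and L-Asp was lowest. The place of L-Asp below control holds with TMM and with relative log expression factors, while with library totals alone or with FPKM these groups overlap.

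VCAN encodes versican, a large proteoglycan of the expanded cumulus matrix. It was at 127, 135 and 138 CPM in the control libraries, 184, 138 and 180 in the heat stress ones and 172, 201 and 157 in those with L-Asp. Heat stress replicate 2 lay within the control values on the TMM scale, and lay above them with the other scalings. The 3 L-Asp libraries lay above control, by 1.32 times in the mean.

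RGS2, a regulator that switches off G protein signals, chiefly those of Gq, measured 925, 947 and 954 CPM in control. It measured 1321, 1054 and 853 CPM in the heat stress libraries and 934, 805 and 848 in those with L-Asp. Both heated groups overlapped control. The heat stress mean of 1076 ± 235 CPM (SD, n = 3) was 1.14 times control and the L-Asp mean of 862 ± 65.8 CPM was 0.915 times control. With library totals alone the latter ratio was 1.03, so its side of 1 depends on the scaling.

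**Figure D1:**
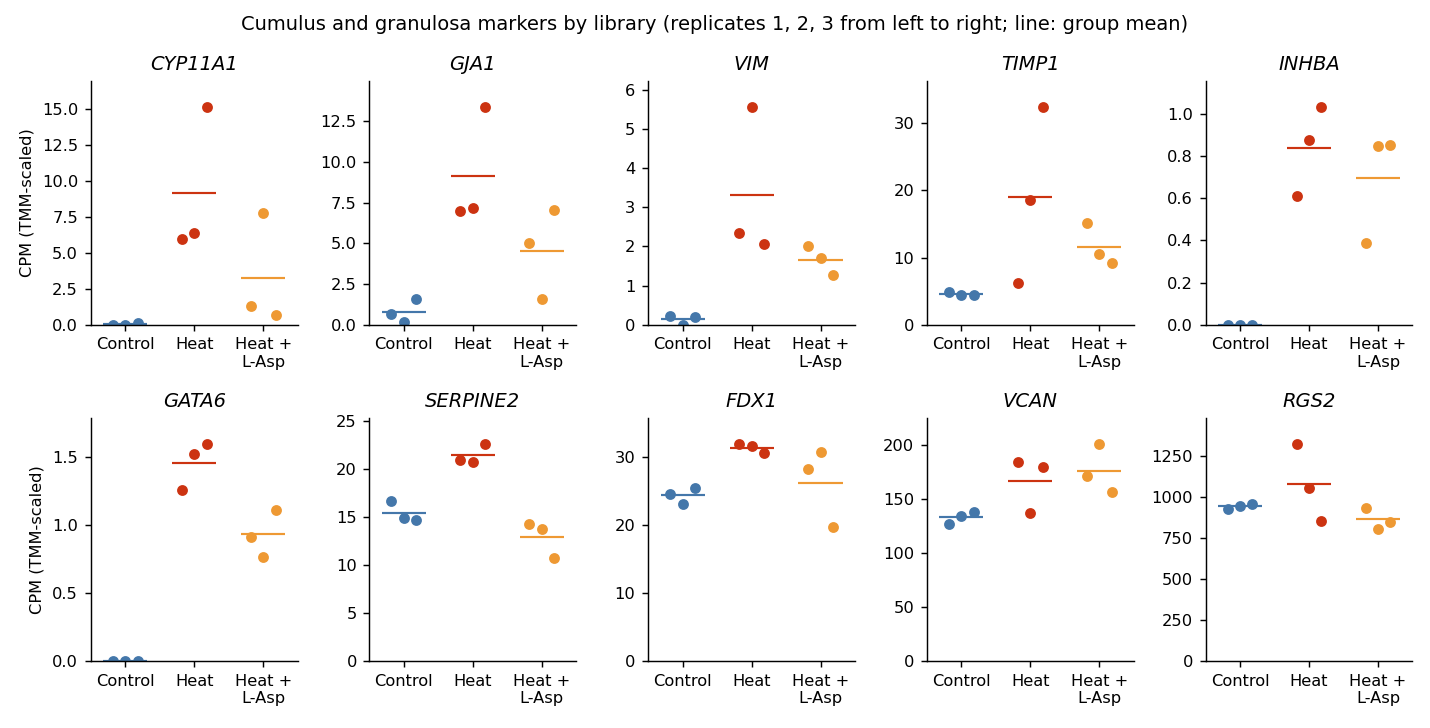
CPM (TMM-scaled) of the 10 markers, 1 panel per gene with its own axis from 0, in the 3 libraries of each group (control, heat stress, L-Asp); points are libraries and lines are group means (for control, the averaged library). CYP11A1, GJA1, VIM, GATA6 and INHBA sit at or near 0 in control, whereas RGS2 lies between 805 and 1321 CPM in all 9 libraries.

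The lowest heat stress library lay above the highest control library for 8 of the 10 markers, where 13.6% of the 15012 tested genes did so. With L-Asp this held for 7 of 10, against 14.2% of tested genes, and for 1 in the lower direction, against 19.6%. The comparisons share the control libraries and the genes were chosen on control levels, so nothing is read from these counts. By the relative order of levels, RGS2 was the 70th of 23507 genes in control by FPKM (607), the 58th after heat stress (772 ± 174, SD, n = 3) and the 75th with L-Asp (606 ± 49.4).

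Per length, the remaining 9 markers were far below RGS2, and VCAN was not set apart from the moderate ones. In control the order by FPKM was VCAN (5.09), SERPINE2 (4.75), TIMP1 (3.41), FDX1 (2.90), GJA1 (0.179), VIM (0.0354) and CYP11A1 (0.0147), with GATA6 and INHBA at 0. VCAN and SERPINE2 overlapped between the control libraries, at 4.86 to 5.28 and 4.56 to 5.13 FPKM. TIMP1 and FDX1 overlapped with no neighbour, while VIM overlapped GJA1 above it and CYP11A1 below it. After heat stress TIMP1 (15.9 ± 10.3 FPKM, SD, n = 3) came next to RGS2, but its range of 5.03 to 25.6 FPKM included all values of SERPINE2 and VCAN. CYP11A1 reached 4.17 ± 2.15 FPKM, beside its partner FDX1 at 4.15 ± 0.364 FPKM, and GJA1 (2.26 ± 0.789) and VIM (1.04 ± 0.694) overlapped in range. GATA6 (0.402 ± 0.061) and INHBA (0.385 ± 0.102) overlapped as well. With L-Asp the order was TIMP1, VCAN, SERPINE2, FDX1, CYP11A1, GJA1, VIM, INHBA and GATA6. There CYP11A1, at 0.596, 3.54 and 0.304 FPKM, overlapped FDX1, GJA1, VIM and INHBA.

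The summed CPM of CYP11A1, GJA1 and VIM gives each library 1 number for the markers that control nearly lacked. It was 0.891, 0.191 and 1.87 in control replicates 1, 2 and 3, then 15.3, 19.1 and 30.6 after heat stress and 8.35, 11.1 and 8.999 with L-Asp. The groups did not overlap, and heat stress replicate 3 stood highest. The heat stress mean of 21.6 ± 7.95 CPM (SD, n = 3) was 22.0 times the control level of 0.982 CPM, and the L-Asp mean of 9.48 ± 1.43 CPM was 9.66 times it. As a log2 ratio the heat stress mean lay 4.46 above control, and 5.35 above it without control replicate 3, the control library with most of these counts. The L-Asp mean lay 3.27 above control, and 4.16 without that library or 2.77 without control replicate 2. The number of cumulus cells behind these sums was not measured, since the series as used here holds no library of cumulus cells alone. Relative to the oocyte genes, the summed FPKM of CYP11A1, GJA1 and VIM was 0.000246% to 0.00271% of the oocyte sum in control, 0.0517% to 0.0931% after heat stress and 0.0201% to 0.0435% with L-Asp. The oocyte sum was itself lower in the heated libraries, though not each of its genes was, and its part in these percentages was not tested.

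The sum of RGS2 and VCAN took another order. It was 1052, 1081 and 1092 CPM in the control libraries, 1506, 1191 and 1033 in the heat stress ones and 1105, 1006 and 1005 in those with L-Asp. Heat stress replicate 3, highest for the former sum, was lowest of its group for this one, and heat stress replicate 1 was the reverse. This sum is mostly RGS2. VCAN alone stood highest in L-Asp replicate 2, where the former sum was also the highest of its group, and in heat stress replicate 3 it was between the other heat stress libraries. Whether the RGS2 and VCAN RNA came from the oocytes or from other cells was not tested.

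**Figure D2:**
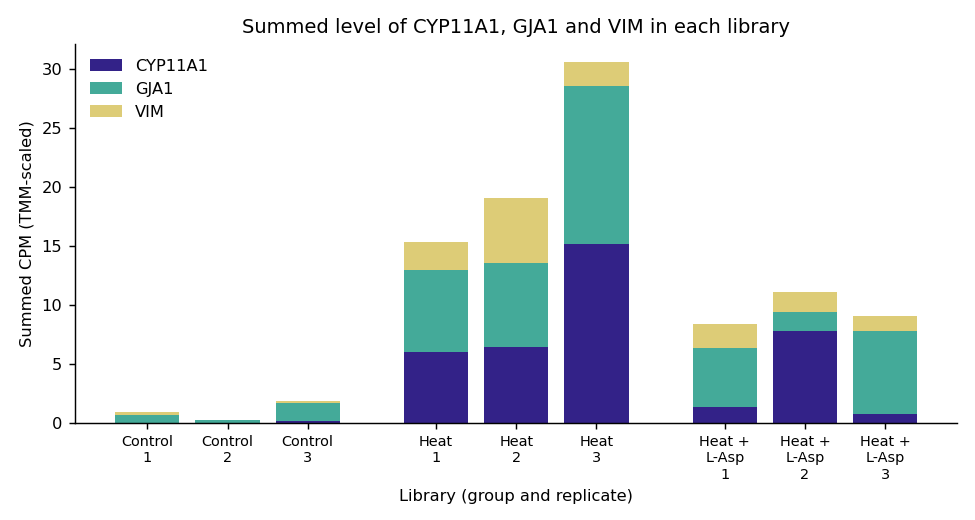
Summed CPM (TMM-scaled) of CYP11A1, GJA1 and VIM, 1 stacked bar per library from 0, in the order control, heat stress, L-Asp. The bars reach at most 1.87 CPM in control, 15.3 to 30.6 CPM after heat stress and 8.35 to 11.1 CPM with L-Asp, and the share of each gene differs between L-Asp libraries.

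The makeup of that sum changed between heated libraries. CYP11A1 made up 39.1%, 33.4% and 49.5% of it in heat stress replicates 1, 2 and 3, and GJA1 45.6%, 37.5% and 43.7%. VIM ranged from 6.75% in heat stress replicate 3 to 29.1% in replicate 2. With L-Asp, CYP11A1 gave 15.8%, 70.3% and 7.63% of the sum and GJA1 60.2%, 14.4% and 78.2%. L-Asp replicate 2 was thus rich in CYP11A1 and poor in GJA1, and L-Asp replicate 3 was the reverse, at sums of 11.1 and 8.999 CPM. CYP11A1, GJA1 and VIM did not keep 1 ratio over the 6 heated libraries.

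FSHR and INHA are further genes of granulosa cells. FSHR, the receptor for follicle-stimulating hormone, measured 1.50 CPM in heat stress replicate 3 and 2.1 CPM in L-Asp replicate 2, the CYP11A1-richest library of each group, and 0 CPM in the other 4 heated libraries. INHA, the alpha subunit of inhibin, measured 6.41 CPM in L-Asp replicate 2 and 0.292 to 0.856 CPM in the other heated libraries. In control both genes were found in replicate 2 only, FSHR at 0.0066 FPKM and INHA at 0.0209 FPKM. In heat stress replicates 1 and 2, FSHR had no count at CYP11A1 levels of 5.98 and 6.37 CPM. INSL3, a hormone of theca cells, had counts in L-Asp replicate 2 (1.78 CPM) and in none of the other 8 libraries, and its part in the levels of that library was not tested. These genes were singled out after their values were seen.

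The spread over the 6 heated libraries differed strongly between markers. The highest library exceeded the lowest by 22.0 times for CYP11A1, 8.37 times for GJA1, 5.21 times for TIMP1 and 4.34 times for VIM. Among tested genes within 0.5 to 2 times the mean CPM of CYP11A1 and above 0 in these libraries, the median spread was 3.76 times and the 95th percentile 19.1, so CYP11A1 lay beyond it. GATA6 went the other way. Its highest library exceeded its lowest by 2.08 times, below the 5th percentile of 2.45 among genes of its level, whose median was 8.18. INHBA, at 2.68 times, lay just above its 5th percentile of 2.42. RGS2 (1.64 times), VCAN (1.46 times) and FDX1 (1.62 times) varied within the 5th to 95th percentile of genes of their level. Heat stress replicate 3 was the highest heated library for 6 of the 10 markers by CPM and for 4 by FPKM, where heat stress replicate 2 was highest for 4 as well. L-Asp replicate 3 was the lowest for 4 on both scales.

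**Figure D3:**
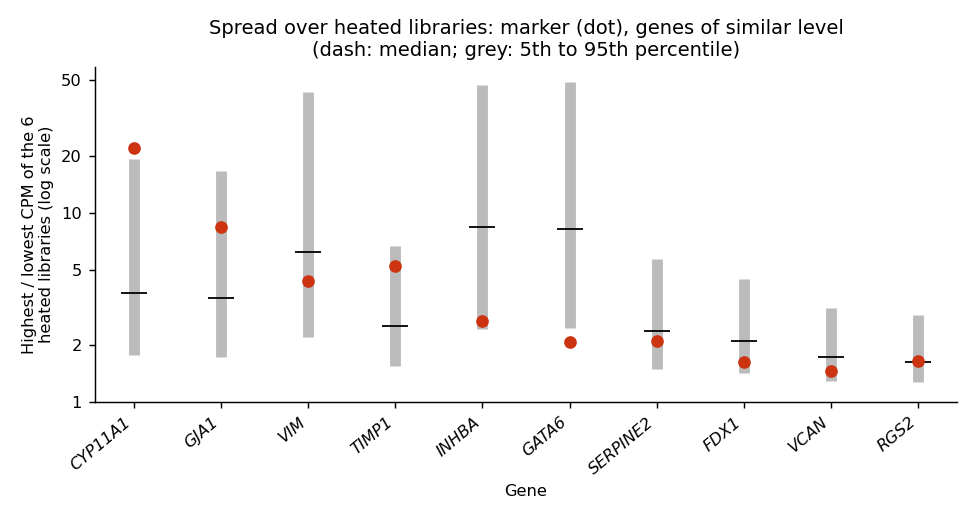
For each marker, the CPM of the highest of the 6 heated libraries divided by that of the lowest (dots, log axis), with the median (dash) and the 5th to 95th percentile (grey bar) of the same ratio among tested genes within 0.5 to 2 times its mean CPM. CYP11A1, at 22.0 times, lies above its bar and GATA6, at 2.08 times, below its bar.

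L-Asp libraries against heat stress libraries is the comparison that uses no control level, and it asks whether the markers differed when L-Asp was present during the heat. The mean was lower with L-Asp for 9 of the 10 markers, where 50.6% of the tested genes were lower, and VCAN was the exception. The median log2 fold change of the 10 markers was -0.68, and that of the 15012 tested genes was -0.01. The L-Asp libraries all lay below the heat stress libraries for VIM, GATA6 and SERPINE2, and for no marker all above. Among the tested genes 5.54% lay wholly below and 6.31% wholly above. For VIM this held with TMM and relative log expression factors but not with library totals or FPKM.

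In the quasi-likelihood test of edgeR, adjusted over all 15012 genes by Benjamini and Hochberg, 0 of the 10 markers passed, where 0.0% of the tested genes did. At an unadjusted p under 0.05 there was 1, SERPINE2, where 6.61% of tested genes were past it, 3.1% in its direction. DESeq2 called 0 of the 10 as well, where it called 1.1% of its genes. SERPINE2 averaged 21.4 ± 1.04 CPM over heat stress libraries and 12.96 ± 1.91 over L-Asp libraries (SD, n = 3 per group), lower in 3 of 3. The fitted difference on the log2 scale was -0.72 ± 0.31 (SE); edgeR's adjusted p was 0.738 and that of DESeq2 0.277. Of the 10 markers CYP11A1 had the largest fitted difference, -1.49 ± 0.84 (SE) and an edgeR adjusted p of 0.757. It was -3.17 without L-Asp replicate 2 and -0.93 without heat stress replicate 3.

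GJA1 and VIM followed at -1.01 ± 0.60 and -1.0 ± 0.81 (edgeR, adjusted p = 0.763 and 0.851). GJA1 was at -0.58 without L-Asp replicate 2 and -1.47 without L-Asp replicate 3, and VIM at -0.41 without heat stress replicate 2. TIMP1, at -0.71 ± 0.52, was at -0.09 without heat stress replicate 3. The fitted values were -0.64 ± 1.22 for GATA6, -0.27 ± 1.54 for INHBA, -0.26 ± 0.28 for FDX1, -0.32 ± 0.21 for RGS2 and 0.08 ± 0.21 for VCAN. Their adjusted p-values by edgeR were 0.782 to 0.995. A p above the threshold does not show that these levels were alike, and the SE of the low markers leaves room for changes of several-fold in size.

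**Figure D4:**
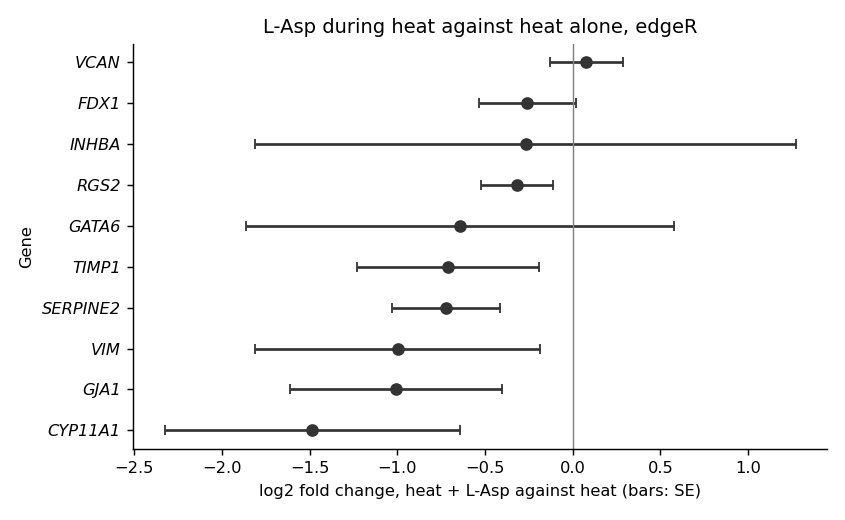
Log2 fold change (L-Asp over heat stress) for the 10 markers from edgeR (points) with its SE (bars). Every point but that of VCAN (0.08) lies below 0, CYP11A1 lies lowest at -1.49, and none passed the test.

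The wider set of follicle cell genes was read from lists covering cumulus expansion, steroid synthesis, granulosa hormones and identity, matrix and cytoskeleton, and junctions. Of 72 such genes that are not among the 10 markers, 60 have a row and 46 were tested. By edgeR 0 passed in any comparison, where 0.0% of all tested genes did in each. At an unadjusted p under 0.05, 3 were higher and 0 lower in heat stress than in control, where 3.86% of tested genes were past it. With L-Asp against control 4 were higher and 0 lower (3.22% of tested genes), and with L-Asp against heat stress 2 were higher and 1 lower (6.61% of tested genes). DESeq2, with its own filter, called 4 of the wider set for heat stress against control (SCARB1, FN1, LGALS1 and FSHR, all higher) and 1 for L-Asp against control (FSHR), where it called 1.01% and 0.386% of its genes. It called 0 between the heated groups, and 1.1% of its genes. The lists were chosen with earlier results of these data known, so the calls against control are a description and nothing is read from them. FN1 and LGALS1 had no count in control, and FSHR had counts in 1 library of each heated group. The median log2 fold change of the 46 was 0.19 for heat stress against control, -0.08 for L-Asp against control and -0.23 for L-Asp against heat stress. Over all tested genes these medians were 0.00157, 0.00672 and -0.01. The wider set went both ways against control. All heat stress libraries lay above control for 13 of the 46, where 13.6% of tested genes did, and below it for 9. With L-Asp 6 lay wholly above control and 10 wholly below, where 14.2% and 19.6% of tested genes did.

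Matrix and adhesion genes held several that control lacked, as it lacked GATA6 and INHBA. LGALS1 (galectin 1), FN1 (fibronectin) and COL4A2 (a chain of basement membrane collagen) had no count in control. LGALS1 measured 1.05, 2.18 and 1.09 CPM in the heat stress libraries and 0.770, 0.930 and 0.734 in those with L-Asp. FN1 measured 0.546 to 2.37 CPM and 0.829 to 2.61 CPM in the heated groups, and COL4A2 0.097 to 1.81 and 0.189 to 0.909 CPM. LGALS1 thus lay lower with L-Asp in all 3 libraries, and FN1 and COL4A2 overlapped. The lowest COL4A2 values, 0.097 and 0.189 CPM, lie under 0.234 CPM, the level of 3 fragments in the averaged control. LGALS1, FN1 and COL4A2 were named by a rule that asks for no count in control.

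SCARB1, the receptor that takes up cholesterol from lipoproteins for steroid synthesis, measured 0, 0 and 0.038 CPM in the control libraries, 2.25, 2.53 and 7.82 in the heat stress ones and 2.62, 1.17 and 1.26 in those with L-Asp. Its highest library, heat stress replicate 3, was also that of CYP11A1. SCARB1 was named after its values were seen.

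Other genes of these pathways were less uniform. CYP19A1, the aromatase that makes estrogen in granulosa cells, measured 0.534 to 0.828 CPM in control, 0.486 to 0.720 after heat stress and 0.525 to 0.608 with L-Asp, so the groups overlapped. STAR, which moves cholesterol to CYP11A1, overlapped too, at 0.667 to 1.14, 0 to 4.42 and 0.932 to 1.88 CPM, though its highest library in each heated group was that of CYP11A1. FDXR, the reductase that supplies FDX1 with electrons, measured 0.121 to 0.231 CPM in control, 0.243, 1.91 and 2.24 CPM in the heat stress libraries and 0, 1.58 and 1.44 CPM with L-Asp, so L-Asp overlapped control. Of the cumulus matrix genes, PTX3 had no count in any library. TNFAIP6 was found in control replicates 1 and 2 (0.149 and 0.0778 FPKM) and in 1 library of each heated group. AMH had none in control or heat stress. The highest genes of these lists by FPKM in control were ANXA2 (52.1), CTNNB1 (40.1), TJP1 (28.1) and FST (27.1), all far below RGS2 at 607. GATA4, a relative of GATA6, measured 82.4 to 86.9 CPM in control, 42.9 to 119.7 in the heat stress libraries and 103 to 168 with L-Asp, so control held GATA4 and had no count of GATA6.

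**Figure D5:**
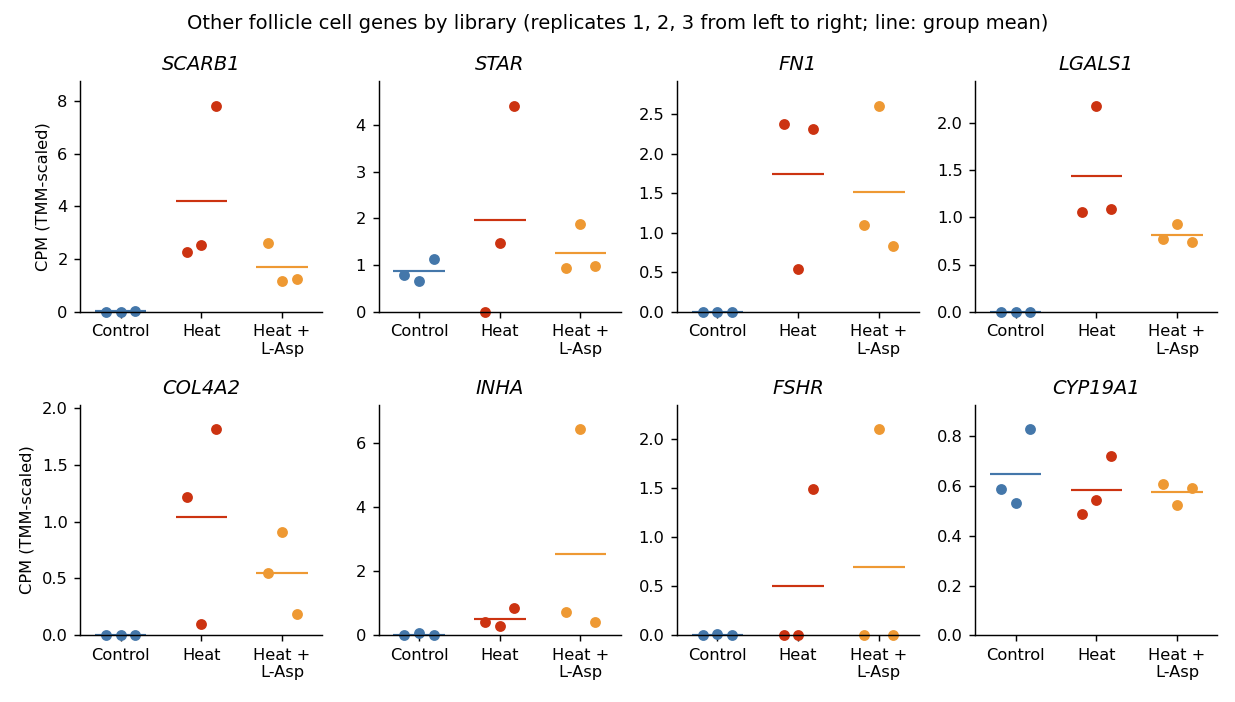
CPM (TMM-scaled) of 8 other follicle cell genes, 1 panel per gene with its own axis from 0, in the 3 libraries of each group (control, heat stress, L-Asp); points are libraries and lines group means. SCARB1, FN1, LGALS1, COL4A2 and INHA lie above control in all 6 heated libraries, but the lowest COL4A2 values are under the level of 3 fragments. FSHR has counts in 1 library of each heated group, and STAR and CYP19A1 overlap between groups.

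Within its own family RGS2 was the most abundant member by FPKM in control. Of 15 RGS genes with a row, RGS16 came next in control at 84.2 FPKM, then RGS22 at 7.28 FPKM. RGS16 measured 251 to 270 CPM in control, 167 to 283 CPM after heat stress and 333 to 665 CPM with L-Asp, with no overlap between the heated groups. RGS22 lay the other way, at 51.3 to 58.97 CPM after heat stress and 40.7 to 44.3 CPM with L-Asp. RGS5 measured 0.972 to 2.23 CPM in control and 7.36 to 8.40 CPM after heat stress, but 6.02, 13.7 and 0.971 CPM with L-Asp, which overlapped both.

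The genes most like these markers were sought by profile overlap, the percentage of a gene's CPM that falls into the same libraries as that of another, over the averaged control and the 6 heated libraries. Of 5751 other named genes with at least 10 CPM, those closest to the sum of CYP11A1, GJA1 and VIM were SLC38A2 (90.1%), RACK1 (88.6%), PKM (87.9%), ACSL4 (87.9%), GSTA1 (87.7%) and RPS13 (87.2%), where the median gene overlapped by 72.2%. They encode an amino acid transporter, a ribosome-bound scaffold, a pyruvate kinase, a fatty acid activating enzyme, a glutathione transferase and a ribosomal protein. SLC38A2 averaged 16.1 ± 5.73 CPM over the heat stress libraries and 9.30 ± 2.30 over those with L-Asp (SD, n = 3 per group), beside 5.88 CPM in control. Control held all 6 of them at 4.32 CPM or more, above the control levels of CYP11A1, GJA1 and VIM. Closest to RGS2 were ITSN2 (97.9%), CNNM2 (97.9%), PPP2R3C (97.8%), RBM6 (97.7%), RABEP1 (97.7%) and PPIP5K2 (97.6%), but 2410 of the 5751 genes overlapped RGS2 by 90% or more.

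Markers of other ovarian and blood cells were read on the same scale as the summed FPKM of CYP11A1, GJA1 and VIM, which was 0.0404 to 0.442 in control, 5.05 to 10.4 after heat stress and 2.38 to 4.43 with L-Asp. The 8 theca and stroma genes with a row summed to 2.86 to 3.50 FPKM in control, 1.84 to 2.26 after heat stress and 2.80 to 4.94 with L-Asp. COL1A1, COL3A1 and INSL3 of that list, and VWF among the endothelial genes, had no count in control. The 4 blood and immune genes summed to 0.179 to 0.233 FPKM in control, 0.081 to 1.27 after heat stress and 0.0922 to 0.644 with L-Asp, and the 3 endothelial genes to 3.75 to 4.53, 3.39 to 5.19 and 3.36 to 5.52 FPKM. The theca and endothelial sums were thus above that of CYP11A1, GJA1 and VIM in control, and overlapped it with L-Asp. The part of these cells in the levels above was not tested.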

How the data were processed

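The 10 markers and all gene lists were chosen with earlier results of these data known. Counts and FPKM values per gene and library come from 1 table deposited by the authors; the whole-number counts entered unchanged. Tools listed in the submitters' processing notes, with no role stated, are StringTie 2.1.6, HISAT2 2.2.1, cutadapt 1.9, edgeR and DESeq2. Build and counting method: not given in the sources. Another 6 per-sample columns of the table were left aside. Group and replicate came from sample titles, which name no animal or culture behind a library; p-values therefore cover only the spread between these libraries, which may be technical.

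The rounded mean of the control libraries entered as 1 library, assumed to vary like the others, with 3 heat stress and 3 L-Asp libraries. Genes were filtered by filterByExpr on the 9 libraries (15012 kept, all 10 markers among them), scaled by TMM and tested with edgeR 4.0.16 (glmQLFit, robust, glmQLFTest) in 1 mean per group with 4 residual degrees of freedom. A gene was called at a Benjamini-Hochberg adjusted p under 0.05. SE is the fold change divided by the root of F. The dispersion index used genes with at least 40 counts per pair. Counting intervals treat fragments as independent and cover counting error only. Low counts in control piled up at 4 (in control replicate 1, 330 genes had 3 counts, 604 had 4 and 216 had 5), so 1 fragment was taken as 4 counts. The procedure was tested on simulated data.

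Alternatives were DESeq2 1.42.0, other scalings and filters, all 9 libraries, a replicate block and leaving out each library. Named genes were the markers, list genes called, the 3 of highest FPKM per list, list genes without control counts but at least 1 CPM in a heated group, and the 6 of highest profile overlap; the text names some of these, and other list genes (SCARB1, FSHR, INHA, INSL3, FDXR, CYP19A1, STAR, PTX3, AMH, GATA4, COL1A1, COL3A1) after their values were seen. List genes with no row, and 1 further list gene, are not reported here. Promoter motifs, planned too, were not analysed here.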

Additional observations from a re-analysis of the deposited data

How the results depend on the processing

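No marker passed for L-Asp against heat stress in any of the settings run (other scalings, filters, all 9 libraries, DESeq2, a replicate block, each library left out). The main edgeR fit called 0.0% of all tested genes in this comparison and DESeq2 1.1%, so few calls among the markers could arise. The replicate block, on the 6 heated libraries, called 0 markers, as did the same fit without it. Replicate numbers did not pair the libraries: deviations of same-numbered libraries correlated at 0.051, -0.020 and 0.011. Fitted log2 fold changes turned sign for INHBA without L-Asp replicate 1 (0.021) and for VCAN without heat stress replicate 2 (-0.046) or L-Asp replicate 2 (-0.0063). With each library left out they ran from -0.45 to 0.02 for INHBA, -0.05 to 0.16 for VCAN and -3.17 to -0.93 for CYP11A1. In the wider list, heat stress against control had 3 calls with all 9 libraries and 4 with DESeq2, against 0, and L-Asp against control had 3 and 1. With 9 libraries these were SCARB1, FN1 and LGALS1 in both comparisons, and FSHR, called by DESeq2 in both, had counts in 1 library per heated group. These calls against control are a description too, since the lists were chosen with earlier results known.

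Of 104 alternative values of the summed levels and counts of calls, 94 stayed within the replicate spread or 1.5 times the count. The other 10 are given here. Most of the 104 are counts of calls, nearly all 0, and the main edgeR fit called 0.0% of all tested genes. Some ratios left out a library that they do not use. The 94 therefore say little about how stable the levels are. Scaling by library totals in edgeR was added after seeing the data. The log2 ratio of the summed CYP11A1, GJA1 and VIM was 5.03 for heat stress and 3.75 for L-Asp over control on FPKM, against 4.46 and 3.27 on CPM. Without single libraries it ran from 3.96 to 5.35 for heat stress, 2.77 to 4.16 for L-Asp over control and -1.39 to -0.85 for L-Asp over heat stress. Library totals without TMM shifted the median gene by 0.19 and 0.17 (log2) against control. Counts near the level of 3 fragments limit CYP11A1, VIM, GATA6 and INHBA in control.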
